A study of Mus musculus with 4 samples.

Results

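The genes described here encode the proteins of the cytosolic ribosome, the particle that translates messenger RNA in every cell. They were chosen by symbol in the authors' deposited table of comparisons. Names beginning with Rpl or Rps and a number were taken, together with Rplp0, Rplp1, Rplp2 and Rpsa, without the Rps6k kinases and without names ending in -ps. The rule found 171 of 45101 probe sets, which name 80 of 20802 genes, and each gene was represented by its probe set with the highest mean over the 4 arrays. By name, 42 of the 80 are subunits of the large ribosomal particle, 30 are subunits of the small particle and 7 are paralogs or like genes. The remaining gene, Rps19bp1, encodes a binding partner of Rps19 and not a subunit. Subunit genes that carry other symbols, such as Fau and Gnb2l1, are described separately.

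The RNA came from the cerebral cortex of female C57BL/6J mice, an inbred strain, at 90 days of age. Dams drank nicotine or saccharin solution from conception, the offspring were exposed until weaning at 21 days and were then left nicotine-free, and the design addresses what remains in adult cortex. The arrays titled nicotine are 2, numbered 1 and 2, and those titled saccharin, the sweetener given alone, are likewise 2. RNA of 4 animals went into a pool, and the labels leave unsaid if 2 arrays of a title hold different pools. The p-values therefore rest on array-to-array spread alone, and this may be technical. The title of each array states 1 exposure and its source name the other. Groups and directions below follow the titles, and every sign would turn if the source names are right.

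A ribosome is built from ribosomal RNA and about equal amounts of each of its proteins, so cells make the mRNAs of these proteins in a coordinated way. In vertebrates most of these mRNAs begin with a cytosine and a run of pyrimidines, the terminal oligopyrimidine tract, through which the mTOR pathway controls their translation. In neurons they are found in the cell body and also in dendrites and axons. Several copies of near-identical sequence exist in the mouse genome, mainly processed pseudogenes, and a short array probe cannot always tell them from the parent gene, so values of single members carry that uncertainty.

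The tract at the start of the transcript is shown first, because it is a known feature of these mRNAs that the choice by name did not use. RefSeq promoters of assembly GRCm38.p6 were searched for 61 of the 80 genes. The other members were not searched. The set of all genes below may not have been limited in the same way, so the shares are given as a description only. A cytosine at the annotated start followed by at least 4 bases that are each C or T, on the sense strand, was found in 12 of these 61 genes (19.7%), against 813 of all 27025 genes with a promoter (3.01%). With the cytosine allowed up to 10 bases to either side, the counts were 36 of 61 (59.0%) and 9297 of 27025 (34.4%). The windows below run from 10 bases before the start to 20 bases from it, and capitals mark the tract. Rpl38, Rpl35, Rpl15, Rplp2, Rps21, Rps15a and Rps6 are members to which the results below return.
Rpl38, chr11:114668570-114668599, plus strand: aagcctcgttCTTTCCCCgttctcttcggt
Rpl35, chr2:39005112-39005141, minus strand: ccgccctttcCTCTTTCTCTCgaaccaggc
Rpl15, chr14:18270967-18270996, minus strand: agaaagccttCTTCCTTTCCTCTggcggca
Rplp2, chr7:141447641-141447670, plus strand: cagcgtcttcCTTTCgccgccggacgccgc
Rps21, chr2:180257369-180257398, plus strand: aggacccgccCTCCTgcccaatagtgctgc
Rps15a, chr7:118116128-118116157, minus strand: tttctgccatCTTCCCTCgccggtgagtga
Rps6, chr4:86857348-86857377, minus strand: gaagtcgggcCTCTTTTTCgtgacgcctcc
Rpl5 and Rps13 are shown for contrast, as they had no such run within the searched distance of the annotated start.
Rpl5, chr5:107900518-107900547, plus strand: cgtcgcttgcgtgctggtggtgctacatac
Rps13, chr7:116334171-116334200, minus strand: caaacgtcggtgagtggcgtcacttcctgt
A match describes these letters only, and annotated starts can lie some bases away from the true one.

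Values are log2 expression per probe set as deposited. Of the 80 genes, 76 reached a mean of 4.04, the median of the means of all probe sets, and are called above-median genes here, and 66 had a mean of 13 or more, on a scale that ended at 16.6. The other 4 were Rps16 and Rpl3l, near the lowest value of 2.10 on all arrays, Rpl39l, at 2.22 on all arrays, and Rpl30. Rpl30 had 3.73 and 3.67 in titled nicotine and 4.47 and 3.67 in titled saccharin, a difference of -0.37 at this low level, with titled saccharin 1 as the high array. Rpl3l is the paralog of striated muscle and Rpl39l that of the male germ line, whereas Rps16 and Rpl30 are general subunits whose named probe sets carried little signal. Markers of brain cells were looked at, and these do not single out the cortex. All 6 neuronal and all 4 oligodendrocyte markers were measured above the lowest values. Snap25 lay between 16.1 and 16.3 and Mbp between 15.9 and 16.1, while the liver markers Alb and Cyp2e1 stood near the lowest value. Array medians lay between 3.88 and 4.09, and with 4 arrays the precision of each value is limited by their small number.

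No ribosomal protein gene differed between the titles by the test. All but 5 of the 76 above-median genes lay within 0.1 of zero on the log2 scale. With limma and Benjamini-Hochberg adjustment over all probe sets, 0 of 80 genes passed an adjusted p of 0.05, where 0.00222% of all probe sets did. At an unadjusted p under 0.05 the count was 1 of 80 (Rpl38), against 1% of all genes and 0.769% of all probe sets. Once array number entered the fit as a block, the count was 2 of 80, against 5.79% of all genes. The median difference over the 80 genes, titled nicotine minus titled saccharin, was -0.014, and over all genes it was 0. Over the 76 above-median genes it was -0.015, against -0.029 over all 12234 genes at that level. These medians do not set the ribosomal genes apart. Centring each array on its median added 0.054 to the difference of every gene alike, which put the median over the 80 genes at 0.040, so no direction is given for the group. Markers of other cells were set beside this. All 4 oligodendrocyte markers were higher on both arrays titled nicotine than on both titled saccharin, and their summed level was 17.03 and 17.05 in titled nicotine and 16.97 and 16.80 in titled saccharin. The choroid plexus list, with Kl near the lowest value, summed to 12.04 and 13.97 in titled nicotine and 11.87 and 10.78 in titled saccharin. Ttr made up nearly all of that sum, and it differed by 0.17 within number 1 and 3.21 within number 2. Sostdc1, Clic6 and Folr1 were lower in titled nicotine within number 1 and higher within number 2. In bulk tissue, fewer cells of a type and less RNA per cell cannot be told apart. The part of these cells in the ribosomal values was not tested. The smallest two-sided p that an exact permutation over these 4 arrays allows is 0.333.

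The sizes of the differences were small. The median absolute difference between the titles was 0.025 for the 76 genes and 0.084 for all above-median genes. Of the 76, 71 (93.4%) lay within 0.1 of zero, against 56.8% of all genes at that level, and none was beyond 0.5, where the background is 2.5%. Strong signals vary less on these arrays in general: over the 821 genes with a mean of 13 or more the median absolute difference was 0.044, and over the 66 ribosomal genes among them 0.023. The spread over all 4 arrays, highest minus lowest, had a median of 0.15 for those 66 genes and 0.23 for the 821.

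**Figure D1:**
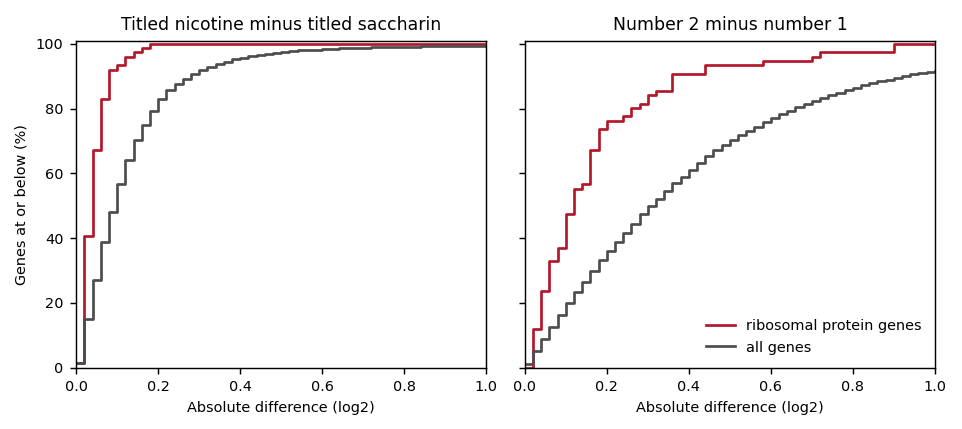
Cumulative share of genes (vertical axis, percent) whose absolute difference is at or below a given size (horizontal axis, log2), for the 76 ribosomal protein genes and for all 12234 above-median genes. The left panel shows titled nicotine minus titled saccharin and the right panel arrays numbered 2 minus arrays numbered 1, and in both the ribosomal curve runs above that of all genes, with 93.4% and 47.4% of the ribosomal genes within 0.1, against 56.8% and 19.9% of all genes.

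The arrays resembled each other by number more than by title, so each difference was also taken within a number. Among the 76 genes, 23 (30.3%) had the lower value in titled nicotine whichever number was taken, against 30.6% of all above-median genes. Only 7 (9.21%) were higher in both, against 16.8%: Rpl18, Rpl6, Rpl8, Rps18, Rps27l, Rps6 and Rps9. The other 46 had opposite signs in the numbers or no difference in one of them. Groups that did not overlap, with both arrays titled nicotine below both titled saccharin, were found for 7 genes (9.21%), against 7.2% of all genes. Among them were Rpl38, Rpl15, Rpl19, Rpl5, Rpl10a and Rpl13a. No gene had both arrays titled nicotine above both titled saccharin, where the background is 2.71%. The median over the 80 genes was 0.0028 within number 1 and -0.037 within number 2.

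Of those 7 genes, Rpl38 had the smallest p. Its protein is a small subunit of the large particle, and mouse embryos that lack a copy translate Hox mRNAs poorly. It stood at 15.24 and 15.23 in titled nicotine and at 15.29 and 15.30 in titled saccharin, which differ by -0.060 (SE 0.0078, n = 2 per title, limma adjusted p = 1, unadjusted p = 0.0107). The difference was -0.048 within number 1 and -0.072 within number 2. Rpl15, which shapes the core of the large particle, had 14.06 and 14.01 in titled nicotine and 14.09 and 14.08 in titled saccharin, which differ by -0.053 (SE 0.0230). Rpl19 had 14.39 and 14.34 in titled nicotine and 14.41 and 14.48 in titled saccharin, a difference of -0.082. In each of the 3 genes both arrays titled nicotine were the lower ones, by small amounts.

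Rpl5 and Rpl11 join ribosomal RNA in a particle that is built into the large subunit and that also binds Mdm2, the ubiquitin ligase of p53. Rpl5 had 14.79 on both arrays titled nicotine, against 14.80 and 14.92 in titled saccharin, and differed by -0.075 (SE 0.0570). For Rpl11 the values were 14.18 and 14.05 in titled nicotine and 14.11 and 14.17 in titled saccharin, so these groups overlapped. Its difference was -0.019, with 0.078 within number 1 and -0.12 within number 2. The second Rpl5 probe set by level differed by 0.0038, with the opposite sign, and the third by -0.075.

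Among the 76 above-median genes the 3 lowest differences were those of Rpl35, Rpl31 and Rpl17, and each changed sign when 1 array was left out. Rpl35 and Rpl17 lie at the exit of the tunnel through which the new chain leaves the ribosome, and Rpl31 is close by. Rpl35 had 15.08 and 14.71 in titled nicotine and 15.02 and 15.07 in titled saccharin, which differ by -0.16 (SE 0.175, n = 2 per title, limma adjusted p = 1). The value of titled nicotine 2 was the low one, and the difference was 0.060 within number 1 and, in number 2, -0.37. Rpl31 had 9.66 and 8.62 in titled nicotine and 9.47 and 9.08 in titled saccharin, a difference of -0.14 that was 0.19 within number 1 and -0.46 within number 2. Rpl17 had 10.23 and 9.64 in titled nicotine and 10.085 and 9.9995 in titled saccharin, with -0.11 between the means, 0.15 within number 1 and -0.36 within number 2. Left without titled nicotine 2, all 3 differences changed sign, and that of Rpl31 also did without titled saccharin 1. With an array left out the numbers are no longer balanced between the titles. A title difference then also holds part of the shift between the numbers.

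The large-subunit genes Rpl23, Rpl37a and Rpl13 completed the lower end. Rpl23 differed by -0.068, Rpl37a by -0.070 and Rpl13 by -0.062. Without the array titled saccharin 2 the signs of Rpl23 and Rpl37a turned, and without titled nicotine 2 that of Rpl13. Within both numbers Rpl23 and Rpl13 were lower in titled nicotine, and Rpl37a was lower only within number 2.

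On the higher side, the largest difference was that of Rps6, the small-subunit protein that S6 kinases phosphorylate downstream of mTOR. It had 9.42 and 9.12 in titled nicotine and 9.12 and 9.08 in titled saccharin, which differ by 0.17 (SE 0.141, adjusted p = 1). Only titled nicotine 1 stood apart, and the difference was 0.30 within number 1 and 0.034 within number 2. Its second probe set, below the median level, differed by -0.19. Rps9 had 14.16 and 13.22 in titled nicotine and 13.997 and 13.17 in titled saccharin, a difference of 0.11. Here the distance between the numbers was much larger than that between the titles. Rps27l, a paralog of Rps27 that p53 induces, differed by 0.066, Rps2 by 0.047 and Rpl18 by 0.033. The signs of Rps9 and of these 3 genes turned when 1 array was left out, which unbalances the numbers. Rps9 and Rps27l turned without titled nicotine 1 or titled saccharin 2, and Rps2 and Rpl18 without titled nicotine 2 or titled saccharin 1. Within both numbers Rps9, Rps27l and Rpl18 were higher in titled nicotine. Rps2 was lower within number 1 and higher within number 2.

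Other members are given for their roles. Rpsa, which is also known as the laminin receptor, had 13.36 and 13.33 in titled nicotine and 13.34 and 13.37 in titled saccharin, a difference of -0.015. Rplp0, Rplp1 and Rplp2 form the stalk that recruits elongation factors, and they differed by -0.0099, -0.014 and -0.0053. Rps19, the gene most often mutated in the human anaemia of Diamond and Blackfan, differed by -0.012, with 0.11 within number 1 and -0.13 within number 2. Rps3, at the mRNA entry channel, differed by 0.019, and Rps27a, which is made as a fusion with ubiquitin, by -0.010. Rpl3 and Rpl4, both of the large-subunit core, differed by -0.038 and -0.014, and Rpl10, a late-joining subunit, by -0.044. None of these passed the test, and for each the titles overlapped.

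None of the paralogs and like genes passed the test. Rpl22l1, a paralog of Rpl22, had 14.18 and 13.98 in titled nicotine and 14.08 and 13.98 in titled saccharin, a difference of 0.051. Rpl7l1, a factor of large-subunit assembly, had 10.27 and 9.80 in titled nicotine and 9.97 and 10.04 in titled saccharin, with a difference of 0.030 that was 0.30 within number 1 and -0.24 within number 2. Rpl36al differed by 0.0017 and the gene listed as Rps4y2, now Rps4l in RefSeq, by 0.021. Rps19bp1 differed by -0.053. Rpl3l differed by -0.00020 and Rpl39l by 0, both at levels that carry no signal.

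Large-subunit and small-subunit genes were also set side by side. Of the 41 above-median large-subunit genes, 33 had a difference below zero, with a median of -0.037, against a median of -0.029 over all above-median genes. Of the 29 small-subunit genes, 14 did, with a median of 0. The share of all genes below zero was not counted. Within number 1 the medians were -0.0064 for the large subunit and 0.015 for the small, and within number 2 they were -0.061 and -0.022. Both numbers gave a lower value for 20 of the 41 large-subunit genes (48.8%) and for 3 of the 29 small-subunit genes (10.3%), where all genes at that level gave 30.6%. With arrays centred, which moves every gene alike, the medians were 0.017 for the large subunit and 0.054 for the small. The large-subunit median minus the small-subunit median was -0.037. It ranged from -0.064 to 0.00040 with 1 array left out, the value nearest zero being that without titled saccharin 2. The subunits were compared in this way after their values were seen, and the difference between them was not tested.

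**Figure D2:**
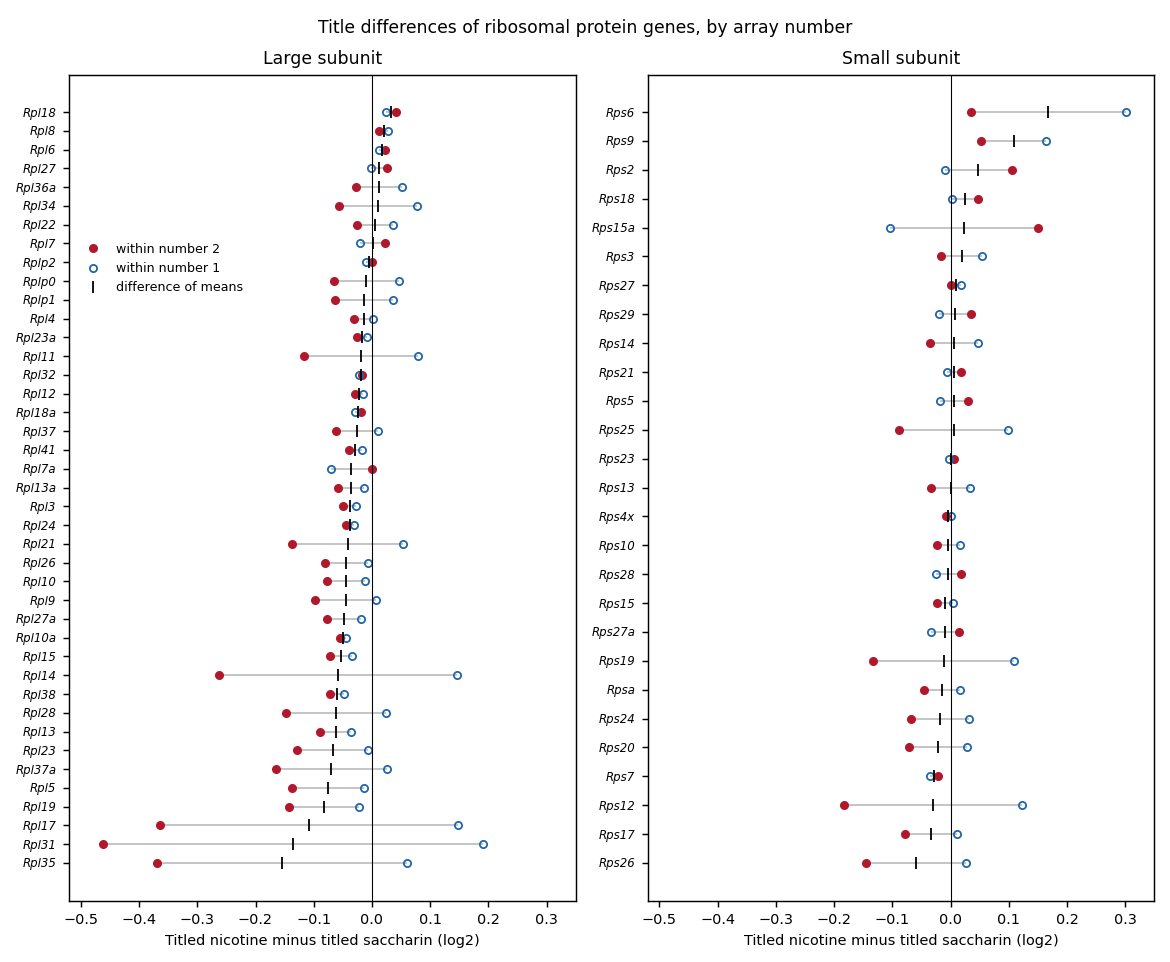
Difference between titled nicotine and titled saccharin (horizontal axis, log2) for the above-median large-subunit genes (left, 41 genes) and 27 of the above-median small-subunit genes (right). Filled circles give the difference within number 2, open circles within number 1 and ticks the difference of the means. Number 2 alone carries the long tails of Rpl31, Rpl35 and Rpl17. In number 2, 36 of 41 large-subunit genes are below zero, a share that was not counted over all genes.

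**Figure D3:**
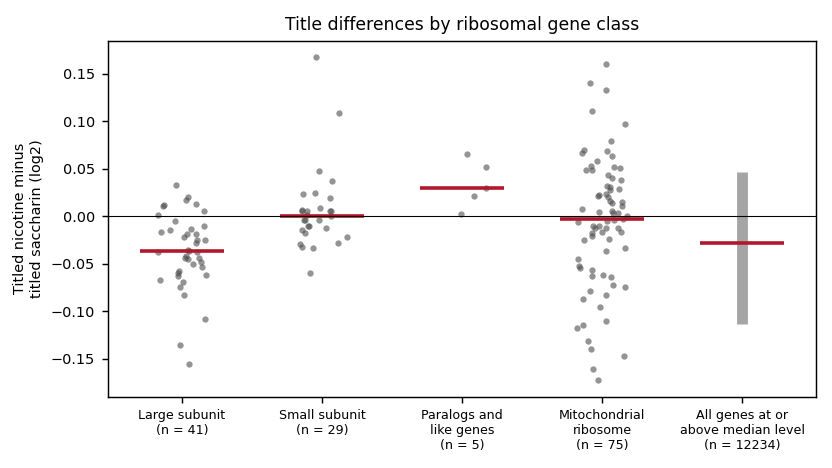
Difference between titled nicotine and titled saccharin (vertical axis, log2) by gene class, each point a gene and each red line the median, for genes of the cytosolic ribosome at or above the median level, 75 genes of the mitochondrial ribosome, and, as a bar from the lower to the upper quartile, all 12234 genes at that level. The large-subunit median is -0.037, the small-subunit median 0 and the mitochondrial median -0.0035.

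For the authors' deposited table, neither the direction of subtraction nor the arrays used are given in the sources used here. It had no ribosomal protein gene at an adjusted p under 0.05, where 0.031% of all probe sets were. At an unadjusted p under 0.05 it held 1 of the 80 (Rpl15), against 1.78% of all genes. In the authors' deposited table the log2 fold change was 0.090 for Rpl15, 0.17 for Rpl35, 0.16 for Rpl17, 0.10 for Rpl19 and 0.035 for Rpl38. It was -0.10 for Rps6 and -0.058 for Rps9 in the authors' deposited table, and the median over the 80 genes was 0.022. For Rpl37 it was -0.073 in the authors' deposited table and for Rpl8 0.0054, while by title Rpl37 differed by -0.026 and Rpl8 by 0.020. The signs were thus opposite to those by title for the genes named first, and the same for Rpl37 and Rpl8. These 2 were not the only ones, as Rpl22, Rpl36a and Rps4y2, among others, also had the same sign in both.

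The array number, which the labels do not explain, separated more of the members than the title did. Rplp2, Rps21 and Rps13 fell in the arrays numbered 2 relative to those numbered 1, by 0.28 to 0.44 on the log2 scale. The ribosomal genes lay on both sides of zero: 31 of the 76 (40.8%) had both arrays numbered 2 below both numbered 1, against 55% of all above-median genes, and 24 (31.6%) had both above, against 19.6%. Bright genes in general were closer to this. Of the 66 ribosomal genes with a mean of 13 or more, 37.9% were below and 36.4% above. Of all 821 genes with such a mean, 43.4% were below and 33.3% above. With limma, 3 of 80 genes (3.75%) passed an adjusted p of 0.05 and were lower, against 1.54% of all genes, and 0 of 80 passed and were higher, against 0.947%. In either direction 2.49% of all genes and 2.44% of all probe sets passed. At an unadjusted p under 0.05 there were 30 of 80 (37.5%), against 24.7% of all genes, 17 lower and 13 higher. With the title added to the fit as a block, 0 of 80 passed at the adjusted p, 22 had an unadjusted p under 0.05, against 18.7% of all genes, and the lowest adjusted p among them was 0.113.

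Rplp2, a stalk protein, stood at 14.92 on both arrays numbered 2 and at 15.27 and 15.28 on those numbered 1, a difference of -0.36 (SE 0.0046, n = 2 per number, limma adjusted p = 0.0218). Rps21 had 15.21 and 15.19 in number 2 and 15.48 on both arrays of number 1, a difference of -0.28 (SE 0.0086, limma adjusted p = 0.0366). Rps13 had 13.42 and 13.46 in number 2 and 13.89 and 13.86 in number 1, a difference of -0.44 (SE 0.0218, limma adjusted p = 0.0492). In all 3 genes the arrays of a number were nearly equal whatever their title.

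The members with the lowest differences by number did not all pass. Rps27l had 10.06 and 10.03 in number 2 and 11.00 and 10.90 in number 1, a difference of -0.90 (limma adjusted p = 0.0517). Rps9, of the small-subunit body, had 13.22 and 13.17 in number 2 and 14.16 and 13.997 in number 1, a difference of -0.88 (limma adjusted p = 0.0798). Rpl31 differed by -0.71, Rps15a by -0.69 and Rps12 by -0.57. These 5 genes were the only ones of the 76 beyond 0.5 either way (6.58%), against 29.7% of all above-median genes. Among genes with a mean of 13 or more, the median absolute difference by number was 0.10 for 66 ribosomal genes and 0.16 for all 821.

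At the upper end stood Rpl18, with 14.73 and 14.69 in number 2 and 14.37 and 14.34 in number 1, a difference of 0.36 (limma adjusted p = 0.0579). Rps3 differed by 0.29, Rpl3 by 0.26, Rps14, whose loss of a copy underlies a human anaemia, by 0.24, and Rpl8 by 0.19. For each of the 5 genes the 2 numbers did not overlap. The median over the 80 genes was -0.018, against 0 over all genes, and over the 76 it was -0.022, against -0.18 over all above-median genes. Over the 66 with a mean of 13 or more it was -0.0053, against -0.029 over all 821 genes with such a mean. Centring the arrays moved the median of all genes by number to -0.16 and that of the 80 ribosomal genes to -0.18.

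**Figure D4:**
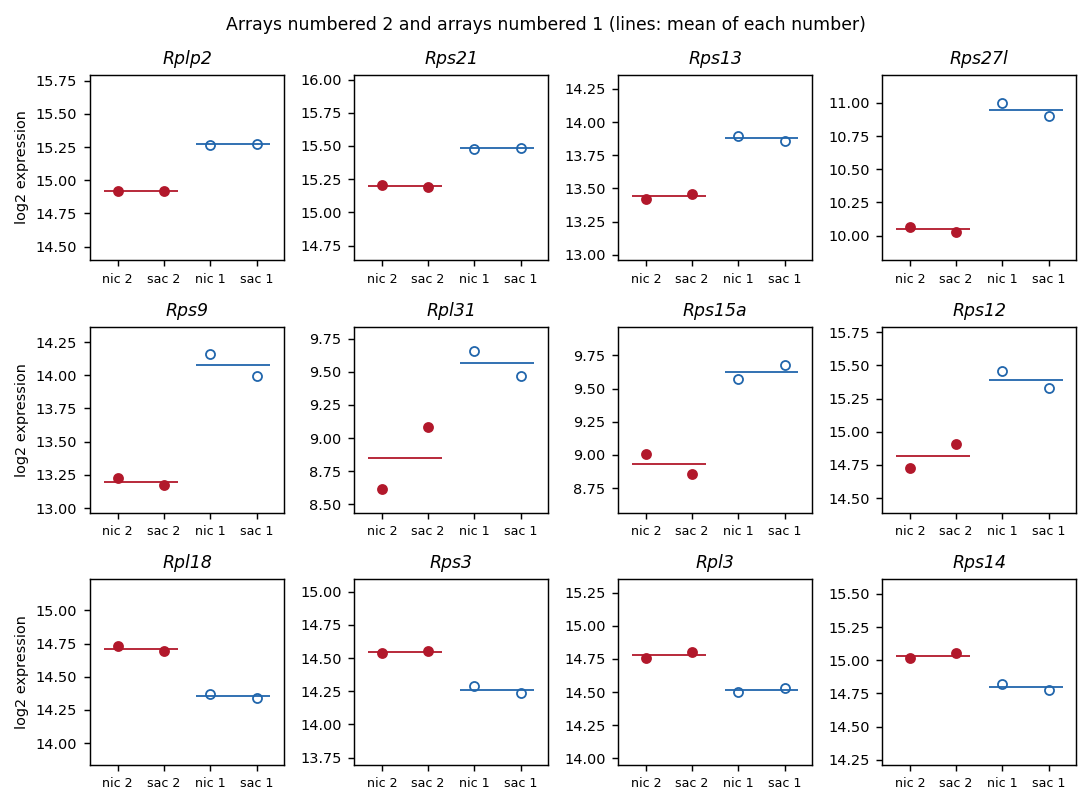
Log2 expression on each array for 12 ribosomal protein genes, with the arrays numbered 2 on the left (filled) and those numbered 1 on the right (open) of each panel, nic for titled nicotine and sac for titled saccharin. Lines give the mean of each number and every panel spans the same range of log2 units; the first 8 genes are lower in number 2 and the last 4 higher.

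Probe sets of the same gene did not always give the same difference by number. Of 38 genes with several above-median probe sets, 18 had probe sets of opposite sign by number and 19 by title. These shares were not counted over all genes. Among the 74 further probe sets at that level, 14 were lower in number 2 by more than 0.5 and 1 was higher by more than 0.5. These are 15 of 74 beyond 0.5 either way, where 29.7% of all above-median genes were at their brightest probe set. For Rps24 the brightest probe set differed by -0.088, while another had 3.62 and 3.77 in number 2 and 6.53 and 6.73 in number 1, a difference of -2.93. That probe set was under the median level of 4.04 in number 2 and counts as above-median only through number 1, so no test is given for it. Rpl12 differed by 0.15 at its brightest probe set, and another had 5.30 and 5.36 in number 2 and 8.09 and 8.04 in number 1, a difference of -2.73 (SE 0.0364, limma adjusted p = 0.0220). Rps9 differed by -0.88 at its brightest probe set and by -0.068 at the next. Rpl22 went the other way, with -0.022 at the brightest and 0.83 at another.

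For Rpl18 the third probe set by level passed in the higher direction, with 12.74 and 12.73 in number 2 and 12.47 on both arrays of number 1 (0.27, limma adjusted p = 0.0338), while the second differed by -0.27. The 3 probe sets of Rps27l differed by -1.04 to -0.84, and the 5 of Rps21 by -1.296 to -0.12, all with lower values in number 2. Over the 40 probe sets of members between the median level and a mean of 13 the median difference by number was -0.37, and that by title was 0.0080. The 40 include the Rps24 probe set that was under the median level in number 2. Over all above-median genes the medians were -0.18 by number and -0.029 by title, and all probe sets of that range were not summarized.

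**Figure D5:**
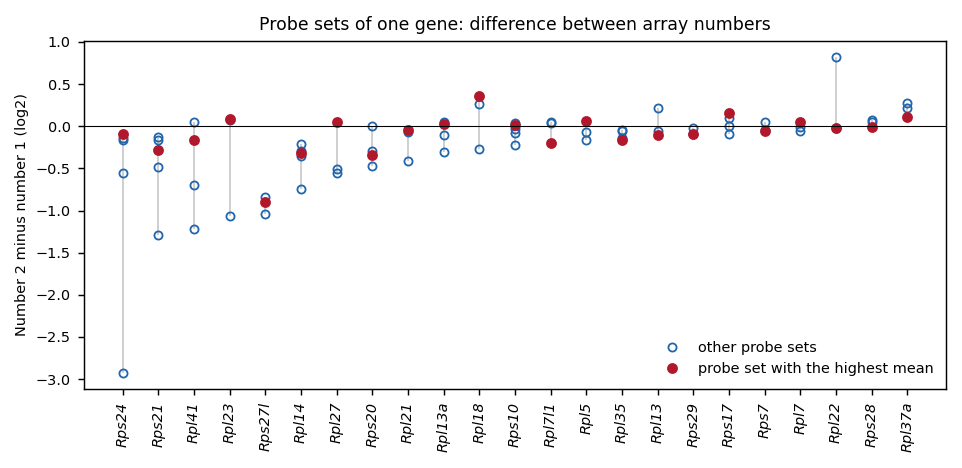
Difference between arrays numbered 2 and arrays numbered 1 (vertical axis, log2) for every above-median probe set of the genes that have at least 3 of them, filled for the probe set with the highest mean and open for the others. Probe sets of Rps24 span from -2.93, for a probe set under the median level in number 2, to -0.088, and those of Rpl22 from -0.022 to 0.83, while the 3 of Rps27l lie together.

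Other measures moved with the number, and their part in these differences was not tested. Control probe sets for the ribosomal RNA of the small subunit had 9.38 and 9.91 in number 2 and 14.66 and 14.72 in number 1 at the 3′ part (limma adjusted p = 0.0488), and the middle part differed by -6.67. For Actb, where a gap between the ends of the transcript reflects how intact and how fully labelled the RNA was, the 3′ level minus the 5′ level came to 1.25 and 1.73 on the arrays numbered 2, against 2.39 and 2.38 on those numbered 1. For Gapdh the gap was small on every array, with -0.14 and 0.0070 in number 2 and 0.092 and 0.13 in number 1. The 6 neuronal markers summed to 17.23 and 17.15 in number 2 and to 17.22 and 17.23 in number 1, so these sums overlapped, but single markers moved in both directions. Slc17a7, of excitatory neurons, had 12.57 and 12.36 in number 2 and 9.94 and 10.06 in number 1 (2.46, limma adjusted p = 0.0459), and Rbfox3 fell by 0.76 (limma adjusted p = 0.0435). The 4 astrocyte markers summed to 14.05 and 14.11 in number 2 and to 13.89 and 13.93 in number 1. Gfap among them had 10.02 and 9.79 in number 2 and 6.55 and 6.84 in number 1 (limma adjusted p = 0.0523). Slc1a3, the brightest of the 4, differed by 0.24 and Aqp4 by -0.27, while Aldh1l1 stood near the lowest value. The astrocyte markers thus did not move in 1 direction.

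The rest of the translation machinery gave the following. Of the ribosomal proteins under other symbols, Fau, which is made as a fusion with a ubiquitin-like protein, differed between the titles by 0.029, and the signalling scaffold Gnb2l1 (now Rack1) by 0.050. Over 17 translation factors and other mRNAs with a terminal oligopyrimidine tract, 0 passed by title and the median was 0.013, with Eif3e at -0.082, Eef1g at 0.027, Tpt1 at 0.026 and Eef2 at -0.088. Over 26 genes of ribosome biogenesis 0 passed, and the median was -0.045. Of the 26, 2 had an unadjusted p under 0.05, where 1% of all genes did: Bysl, a factor of small-subunit assembly, at 0.12 and Wdr12, of large-subunit assembly, at -0.10, and next came Nop2 at 0.059 and Taf1b at 0.26. Over 19 genes that link mTOR to the ribosome 0 passed, and the median was -0.064, with Rptor at -0.16, Mtor at -0.16, Eif4ebp1 at 0.091 and Tsc1 at -0.14. Rptor, the subunit that presents substrates to mTOR, had 9.01 and 8.95 in titled nicotine and 9.15 and 9.12 in titled saccharin. By number, Polr1c, a polymerase subunit, fell by 0.35 (limma adjusted p = 0.0456) and Eif4ebp2, a repressor of translation, fell by 0.85 (limma adjusted p = 0.0349).

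Genes of the mitochondrial ribosome, which translates the few mRNAs of the mitochondrial genome, were examined in the same way. Over 75 of them the median by title was -0.0035, with 0 past the test, and the median by number was -0.26, against -0.018 over the 80 cytosolic genes and -0.18 over all above-median genes. Both arrays numbered 2 were below both numbered 1 for 58 of the 75, against 55% of all above-median genes. With limma 4 of the 75 passed an adjusted p of 0.05 and were lower, against 1.54% of all genes: Mrpl28, Mrps10, Mrpl34 and Mrpl52. With the title as a block 0 of all probe sets passed. The smallest p-values by title were those of Mrpl2 at -0.053, Mrpl11 at -0.14, Mrps30 at -0.087 and Mrps23 at 0.11. Most of the cytosolic genes had a mean of 13 or more, and over all 821 genes with such a mean the median by number was -0.029. The difference between the cytosolic and mitochondrial medians was not tested.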

How the data were processed

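Per the labels' protocols, cortical RNA of 4 animals was pooled and biotin-labelled for Affymetrix arrays. The authors deposited log2 expression values for 45101 probe sets on 4 arrays, with background correction and normalization not given in the sources used here. Per the file headers, the authors' deposited table gives a log2 fold change, p-values and the scores t and B, and the submitters' processing notes name limma. The scores were not used. Differences were tested by limma 3.58.1 under R 4.3.3 (functions lmFit and eBayes, on all probe sets, Benjamini-Hochberg adjustment, threshold 0.05), by title and by array number, after a test on simulated data. Members and lists were chosen with earlier results of these data known. Named genes were the 8 highest and 8 lowest by title and the 5 highest and 5 lowest by number among members whose mean reached the median of all probe sets, with 14 genes chosen for their roles, the paralogs and, from other lists, those past the threshold and up to 4 with the smallest p. Genes outside that rule, among them Rps21, Rps13, Rpl15, Rpl12, Rps24, Rpl22, Rpl30 and Rpl37, were chosen after their values were seen. Alternatives were centring, quantile normalization, a filter on dim probe sets, trended robust variance, a replicate block, other probe sets and leaving out each array. Some genes that the naming rule takes in are not reported here.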

Additional observations from a re-analysis of the deposited data

Results flagged for a closer look

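In 8 genes the difference between titled nicotine and titled saccharin had opposite signs in the 2 array numbers, each beyond 0.1 on the log2 scale, a limit set after the data were seen. With 1 array per title and number, this difference between the numbers was not tested. The share of all genes that meet the same limit was not counted, so it is not known if the 8 set the ribosomal genes apart. The value within number 2 less that within number 1 was -0.65 for Rpl31, -0.54 for Rpl7l1, -0.51 for Rpl17, -0.41 for Rpl14, -0.31 for Rps12, -0.24 for Rps19 and -0.21 for Rpl36al. It was 0.25 for Rps15a, the only one of the 8 with the higher value within number 2. Groups of 2 arrays are too small to be searched for a single array that stands apart.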

How the results depend on the processing

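No ribosomal protein gene passed by title under any alternative run. The single probe set of 45101 that passed by title was lost (0) with centring, the filter, quantile normalization, trended robust variance and the replicate block, and leaving out an array gave 0 to 379 (379 without titled nicotine 1 and 277 without titled saccharin 1). By number, 1102 probe sets passed, against 9501 with centring, 6820 with the filter, 1878 with trended robust variance and 0 with the replicate block, and 989 to 3177 without an array (2621 without titled nicotine 2 and 3177 without titled saccharin 2). The 3 ribosomal genes that passed by number became 13, 11, 6 and 0 in the same order, and 2 (without titled nicotine 1) to 6 (without titled saccharin 2) with an array left out. The median over the 80 genes by title, -0.014, was 0.040 with centring and -0.045 to 0 without an array, and within number 2, -0.037, it was 0.067 with centring. By number, -0.018, it was -0.18 with centring, -0.061 with the second probe set and -0.050 to 0.0032 without an array. The numbers are shared by 2 pairs only and the labels do not say what they mark. Across 12234 genes the shift between numbers correlated at 0.80 between the titles, which describes these arrays and is no proof of pairing. With the replicate block, 2 of 80 ribosomal genes had an unadjusted p under 0.05 by title, against 5.79% of all genes. Centring moves every gene alike; the cause of the other changes was not tested.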
